A study of Mus musculus with 12 samples.

Results

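Promoter methylation was compared between mice with induced Dnmt3b and control mice in the short-fragment libraries of a reduced representation bisulfite study of the mouse colon. Those libraries are 6 of the 12 in the series, 1 from each of 3 induced and 3 control mice, and hold MspI fragments of 40 to 120 nt. Of the 12098 genes listed in any library, 11113 were listed in a short-fragment library and 10027 in all 6, and those 10027 genes are described here. All mice were C57BL/6, and the DNA came from cells labelled as colon epithelium. The induced mice received doxycycline at 0.5 g/l in their drinking water for 3 months, with the water changed every 3 days, and the control mice drank regular water. The labels give no age, no sex and no promoter that drives Dnmt3b, and do not say whether the control mice carried the inducible gene, so the effects of the drug and of Dnmt3b cannot be told apart.

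Dnmt3b is a de novo DNA methyltransferase, which adds methyl groups to CpG sites that carry none. MspI cuts at CCGG whether or not the inner CpG is methylated, so its short fragments come mostly from CpG-rich sequence such as CpG islands at gene starts. Most such islands are free of methylation in normal tissue, and methylation there is associated with silencing of the gene. Bisulfite converts unmethylated cytosine and leaves methylated cytosine, and the value of a gene is the mean share of methylated CpGs over its RefSeq promoters, given here in percent. Differences are in percentage points, induced minus control. Values of single mice are listed in the order of mice 1, 2 and 3, errors are SDs over n = 3 mice, and adjusted p-values are from limma with Benjamini-Hochberg adjustment over all 10027 genes. In DNA from many cells, full methylation in part of the cells and partial methylation in all of them cannot be told apart.

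The short-fragment libraries listed between 10358 and 10838 genes each, and the read depth behind a value is unknown. Control mouse 2 stood apart on the X chromosome, where its 229 tested genes had a mean of 5.37% against 35.3% and 34.4% in control mice 1 and 3 and between 52.7% and 55.2% in the induced mice. On the autosomes the control mice had means of 3.66%, 3.78% and 3.69%. Of 11 promoters that mark epithelium 6 were measured (Cdh1, Cdx1, Cdx2, Cldn3, Cldn7 and Epcam), all under 1.60% on average in control mice, none of 9 leukocyte markers was measured, and 1 of 6 endothelial and 4 of 8 stromal and muscle markers were. Promoter methylation does not count cells, so these markers do not show how pure the epithelium was. The expression of Dnmt3b was not measured in these files, and its own promoter went from 3.82% ± 0.166 to 5.35% ± 0.243 (adjusted p = 0.00286).

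The promoters of 7 genes are printed to show the kind of sequence that gained methylation and that stayed free of it. Of these, 3 had a large gain (Nkx6-2, Kcnc1, Eef1a2), and a relative or fellow family member of each stayed low (Cdx2, Kcnk5, Eef2). The last, Tmem178, had a partial gain of similar size in the 3 induced mice. All 7 were chosen after their values were seen. Each run covers 250 bases before to 50 bases after the gene start on the gene's strand, from RefSeq on GRCm38.p6, with every CG in capitals. These windows are not the measured intervals, since the sources used here do not give the window in which the authors averaged CpGs.
Nkx6-2, chr7:139582748-139583047, minus strand: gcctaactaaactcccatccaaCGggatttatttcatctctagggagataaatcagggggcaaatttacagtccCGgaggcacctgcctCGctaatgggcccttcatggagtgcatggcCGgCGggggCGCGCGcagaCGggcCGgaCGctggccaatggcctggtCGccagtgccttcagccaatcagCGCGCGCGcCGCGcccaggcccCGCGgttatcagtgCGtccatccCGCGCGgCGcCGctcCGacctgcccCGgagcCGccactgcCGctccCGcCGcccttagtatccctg
Cdx2, chr5:147307200-147307499, minus strand: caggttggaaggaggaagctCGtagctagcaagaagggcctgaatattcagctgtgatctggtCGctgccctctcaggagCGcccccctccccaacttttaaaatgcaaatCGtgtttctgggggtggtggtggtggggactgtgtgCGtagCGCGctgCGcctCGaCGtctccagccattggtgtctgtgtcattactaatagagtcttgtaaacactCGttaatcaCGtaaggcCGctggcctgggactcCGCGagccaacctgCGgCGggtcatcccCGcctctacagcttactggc
Kcnc1, chr7:46396218-46396517, plus strand: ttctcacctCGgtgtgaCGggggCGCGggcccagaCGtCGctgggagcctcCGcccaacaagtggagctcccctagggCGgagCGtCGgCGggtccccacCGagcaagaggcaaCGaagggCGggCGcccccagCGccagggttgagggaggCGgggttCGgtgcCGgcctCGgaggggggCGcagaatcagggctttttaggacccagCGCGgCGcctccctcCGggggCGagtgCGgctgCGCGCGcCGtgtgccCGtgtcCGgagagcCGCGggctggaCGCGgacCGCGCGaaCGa
Kcnk5, chr14:20181733-20182032, minus strand: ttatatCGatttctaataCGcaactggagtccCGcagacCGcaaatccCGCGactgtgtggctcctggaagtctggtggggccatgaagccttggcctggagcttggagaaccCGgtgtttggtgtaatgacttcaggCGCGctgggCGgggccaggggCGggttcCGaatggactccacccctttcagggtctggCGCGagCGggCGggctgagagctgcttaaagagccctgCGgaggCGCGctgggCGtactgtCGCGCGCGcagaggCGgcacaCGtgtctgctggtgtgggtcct
Tmem178, chr17:80944382-80944681, plus strand: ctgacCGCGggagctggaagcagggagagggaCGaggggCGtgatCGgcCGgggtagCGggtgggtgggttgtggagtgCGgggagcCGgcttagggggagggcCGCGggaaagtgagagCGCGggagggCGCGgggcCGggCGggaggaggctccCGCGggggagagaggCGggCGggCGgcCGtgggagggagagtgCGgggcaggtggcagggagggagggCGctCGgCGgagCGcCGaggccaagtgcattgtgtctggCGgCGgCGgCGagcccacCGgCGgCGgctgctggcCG
Eef1a2, chr2:181156966-181157265, minus strand: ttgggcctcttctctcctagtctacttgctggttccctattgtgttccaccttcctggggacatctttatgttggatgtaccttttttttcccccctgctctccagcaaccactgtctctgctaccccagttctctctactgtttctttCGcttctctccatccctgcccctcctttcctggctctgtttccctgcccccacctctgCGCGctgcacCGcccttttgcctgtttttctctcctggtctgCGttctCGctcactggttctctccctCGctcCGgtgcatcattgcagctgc
Eef2, chr10:81176381-81176680, plus strand: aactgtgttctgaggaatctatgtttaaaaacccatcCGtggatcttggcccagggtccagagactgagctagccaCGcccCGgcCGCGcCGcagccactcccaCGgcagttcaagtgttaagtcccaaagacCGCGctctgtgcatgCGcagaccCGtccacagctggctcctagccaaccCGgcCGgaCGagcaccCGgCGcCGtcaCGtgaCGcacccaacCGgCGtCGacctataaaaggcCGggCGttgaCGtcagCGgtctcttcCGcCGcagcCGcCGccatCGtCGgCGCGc
The windows of Nkx6-2 and Kcnc1 hold 32 and 41 CG sites, more than those of their low partners Cdx2 with 18 and Kcnk5 with 26, whereas Eef1a2 with 8 holds fewer than Eef2 with 34, and Tmem178 holds 37. The MspI motif CCGG, which reads the same on both strands and contains a CG, occurs 4 times in the window of Nkx6-2, 3 times in that of Kcnc1, 1 time each in those of Kcnk5 and Eef1a2, 4 times in that of Tmem178, 6 times in that of Eef2 and not in that of Cdx2. Of the 32851 windows of 300 bases listed by RefSeq, 94.6% hold CG, 52.8% hold CCGG, and the median window has 7 CG sites. The tested genes are richer: among the 7977 with a matched window the median was 23 CG sites, and 90.9% had CCGG. Cdx2 and Eef1a2 lie under that median. The printed pairs are examples and do not show how the classes differ in sequence. A comparison of sequence between gained and low promoters was void, because single windows were matched for 73.6% of the genes with a large gain and 81.2% of those that stayed low, and a match of 80% in each was required.

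The gain was split unevenly over the promoters. Of the 10027 genes 2765 were higher in induced mice (27.6%) and 8 were lower (0.0798%), while the median difference over all genes was 0.50 points. Mean methylation over all of them was 4.19% ± 0.331 in control and 17.2% ± 1.10 in induced mice (p = 0.10 in a two-sided exact permutation test, which can go no lower with 3 against 3 mice). A full gain, meaning a significant rise of 50 points or more, was seen at 1347 promoters (13.4%), whose medians were 2.52% in control and 67.2% in induced mice. A partial gain of at least 10 and under 50 points was seen at 963 promoters (9.6%), with medians of 1.56% and 37.7%, and a significant rise under 10 points at 455 (4.54%), with medians of 0.163% and 4.17%. The largest class, 6214 promoters (62%), was held low: no significant change, a mean under 10% in both groups, and an upper 95% confidence limit of the difference under 10 points.

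The boundary between full and partial gain is a choice on a continuous scale. The 10 called genes nearest above 50 points had rises from 50.02 to 50.59 points, and the 10 nearest below from 49.60 to 49.98 points. Most held-low promoters were far under the limit of 10%, although the highest induced mean among them was 9.92% and a limit of 5% left 5718 held low. Of the 6214, 4156 (66.9%) were under 1% in every one of the 6 mice, 327 were listed at 0 in all 6, and the median upper confidence limit was 0.453 points. A further 172 promoters were at 50% or more in control mice without a significant change, with medians of 83.3% and 91.3%, and 868 fell in none of these classes, 164 of them X-linked.

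**Figure D1:**
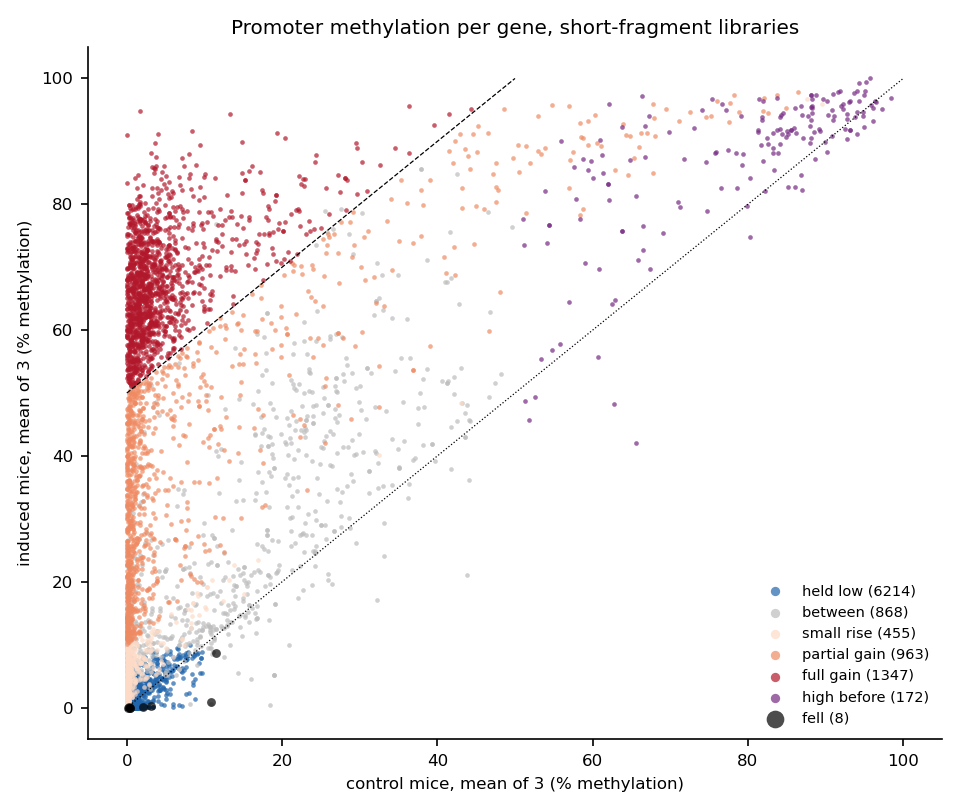
Mean promoter methylation per gene in the 3 control mice (x axis, percent) and the 3 induced mice (y axis, percent), 1 point per gene, coloured by class, with the line of no change dotted and a rise of 50 points dashed. Most full gains rise from the left edge, with medians of 2.52% and 67.2%, while 6214 promoters stay in the lower left corner.

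Developmental transcription factors gained methylation at most of their promoters. Over their 8 lists with 340 genes in all, 177 genes (52.1%) had a full gain, 59 (17.4%) a partial gain and 76 (22.4%) were held low. The shares over all genes were 13.4%, 9.6% and 62%. Homeobox genes outside the Hox clusters, which pattern organs and the nervous system, were higher at 108 of 126 members (85.7%, against 27.6% of all genes), 92 with a full gain, and their median difference was 62.4 points. Among the homeobox genes of the Nkx, Lhx, Pou, Dlx and sine oculis families, grouped after the values were seen, 28 of 29 were higher, 26 with a full gain.

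Nkx6-2, a homeobox factor of neural progenitors, measured 0.53%, 2.3% and 1.12% in the control mice and 81.1%, 80.2% and 86.5% in the induced mice. The groups did not overlap, and the rise was 81.3 points (adjusted p = 8.9e-05). Cdx2, the homeobox factor that maintains intestinal identity, measured 0.1%, 0.42% and 0% in the control mice and 0.37%, 0% and 0% in the induced mice, a difference of −0.05 points with a 95% confidence interval from −0.508 to 0.408. Six5 was held low as well, at an induced mean of 0.05%.

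Paired-box and T-box genes, which specify organs and limbs in the embryo, were higher at 17 of 18 members (94.4%, against 27.6% of all genes). In the list 16 had a full gain, and no member was held low, against 62% of all genes. Tbx5, a factor of heart and forelimb, measured 3.83%, 2.35% and 0% in control mice and 81.5%, 74.2% and 93.6% in induced mice. Tbx3, the exception, went from 14.02% ± 4.42 to 32.8% ± 11.3 without passing the test (adjusted p = 0.126). Basic helix-loop-helix factors of lineage choice were higher at 34 of 51 members (66.7%, against 27.6% of all genes) with a median difference of 52.6 points. Within this family Nhlh2, a factor of neurons, went from 3.47% ± 0.445 to 84.9% ± 6.24, whereas Id1 and Id3, inhibitors of such factors that proliferating cells make, were listed at 0 in all 6 mice. In the long-fragment libraries Id3 had means of 11.4% in control and 5.02% in induced mice.

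Sox genes, which encode HMG-box factors of cell fate, split sharply. Sox2, a factor of stem cells and of the foregut, measured 1.57%, 1.25% and 2.86% in control mice and 70.7%, 72.0% and 81.3% in induced mice (rise of 72.8 points, adjusted p = 0.000294). Sox9, a factor of the intestinal crypt, measured 0.5%, 0.03% and 1.22% in control mice and 0.05%, 0.13% and 0.13% in induced mice. Its control and induced values overlapped near 0, and Sox4 and Sox13 were held low too. That makes 3 of 14 members held low (21.4%, against 62% of all genes). Another 7 had a full gain (50%, against 13.4%) and 3 a partial gain.

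Forkhead genes repeated that split. Foxe1, a thyroid factor, went from 3.83% ± 2.16 to 82.6% ± 7.21 and Foxd3, a factor of the neural crest, from 3.30% ± 0.353 to 73.6% ± 9.77. Foxa1, a pioneer factor of gut endoderm, was at 0.0567% ± 0.0306 in control and 0.0233% ± 0.0404 in induced mice, and Foxo1, a factor of the insulin pathway, at 0.19% and 0.0667%. In the whole family 12 of 34 members had a full gain (35.3%, against 13.4% of all genes). A partial gain was seen at 8, and 11 were held low (32.4%, against 62%).

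The zinc finger families differed among themselves. Of 34 GATA, Zic, Gli and Klf genes 17 were higher (50%, against 27.6% of all genes) and 17 were held low (50%, against 62%). Gli2, an effector of Hedgehog signalling, rose from 5.497% ± 0.902 to 78.6% ± 5.53 and Zic1, a factor of neural patterning, from 3.05% ± 1.52 to 74.1% ± 9.69. Klf5, a factor of proliferating intestinal epithelium, and Klf6 were at 0.0133% and 0.0167% in induced mice. Nuclear receptors were higher at 8 of 27 members (29.6%, against 27.6% of all genes), between 4 and 9 when 1 library was left out: the neural receptor Nr2e1 rose from 2.51% ± 0.980 to 70.3% ± 12.4, and Ppara, a receptor for fatty acids, had 0.00667% in induced mice. The large Zfp family differed from the patterning factors, with 27 of 177 members higher (15.3%), 16 without control mouse 3 and 17 without control mouse 2, and 131 held low.

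Hox genes, which set position along the body axis, gained to a different extent in each cluster. Of 36 members 28 were higher (77.8%, against 27.6% of all genes), 12 with a full and 13 with a partial gain. In the Hoxc cluster 7 of 8 members had a full gain and the other a partial gain, with a median induced level of 68.2%. In the Hoxa cluster none of 11 had a full gain, 5 had a partial gain, 2 a small rise and 2 were held low, with a median induced level of 19.4%. The Hoxd cluster had 4 full and 3 partial gains among 8 members and the Hoxb cluster 1 full and 4 partial gains among 9. This grouping by cluster was made after the values were seen.

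Hoxc8 measured 6.49%, 3.85% and 4.5% in control mice and 75.01%, 72.3% and 86.2% in induced mice. Hoxa9, chosen after its values were seen, ended lower, at 43.7%, 38.9% and 22.0% in the induced mice against 0.963% ± 0.972 in control mice (adjusted p = 0.017). Members of the Hoxa cluster were lowest in induced mouse 3 in several cases, Hoxa9, Hoxa10, Hoxa11 and Hoxa13 among them, unlike the genes with a full gain, most of which were highest in that mouse.

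**Figure D2:**
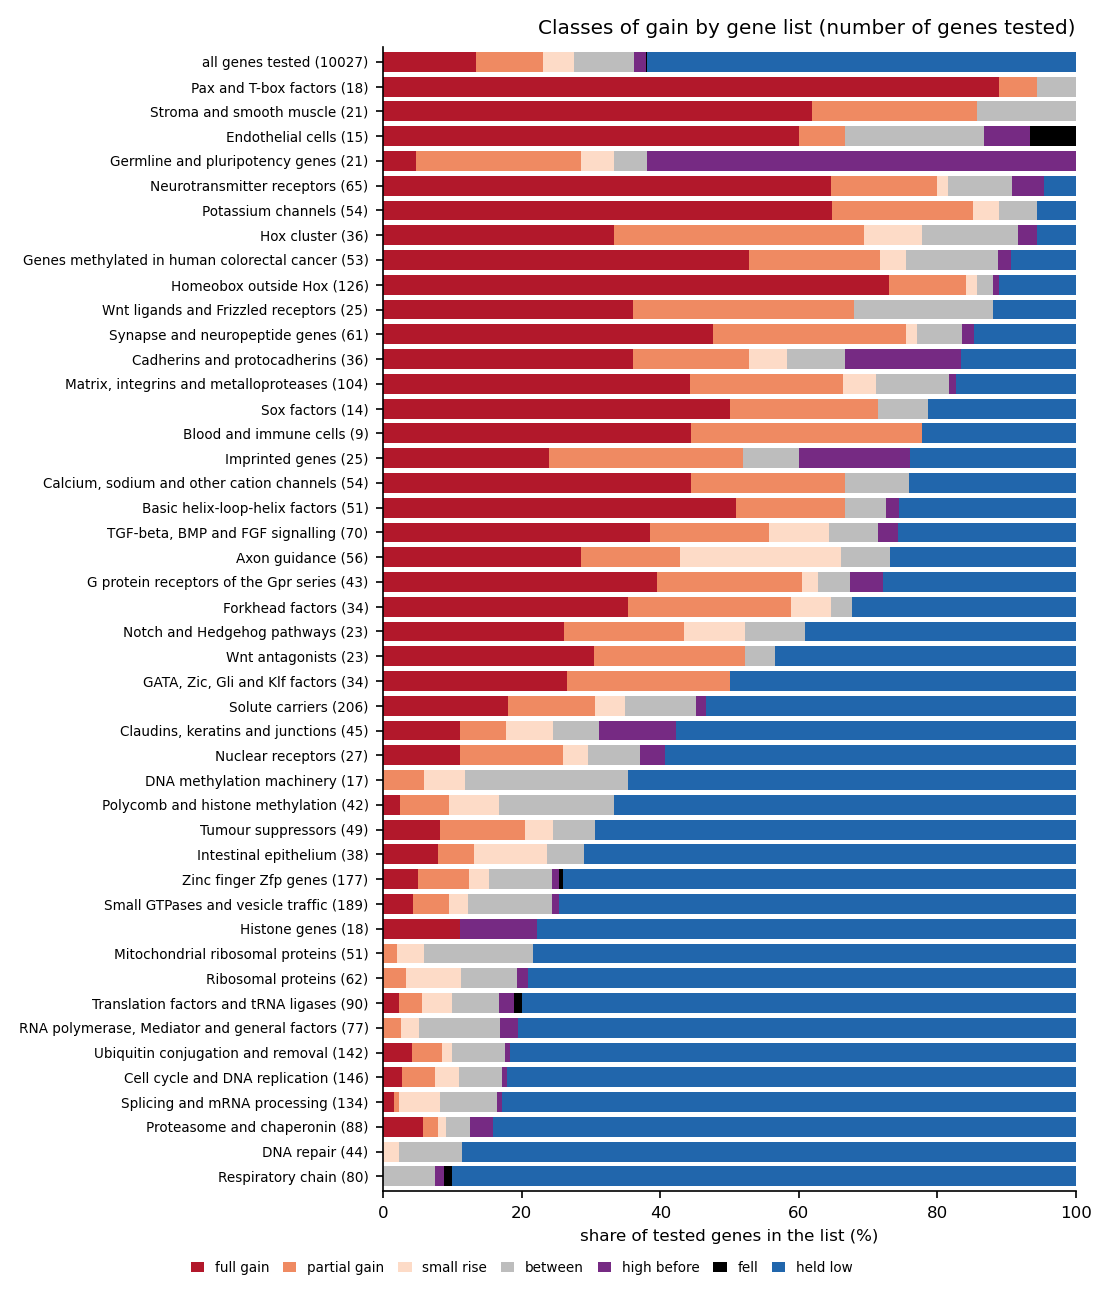
Share of the tested genes of each gene list in each class (x axis, percent), with the number of genes tested in parentheses and all 10027 genes in the top bar. Lists are ordered by the share held low, which runs from 0% in Pax and T-box, endothelial, stromal and germline genes to 90.0% in the respiratory chain, against 62% of all genes.

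Genes of excitable cells did so as well. Over 4 lists of channels, receptors and synaptic genes with 234 members in all, 130 (55.6%) had a full gain, 50 (21.4%) a partial gain and 28 (11.97%) were held low. The shares over all genes were 13.4%, 9.6% and 62%. Potassium channels, which set the membrane potential, were higher at 48 of 54 members (88.9%, against 27.6% of all genes) with a median difference of 58.4 points. Neurotransmitter receptors were higher at 53 of 65 members (81.5%), including 13 of 16 glutamate receptor genes and 6 of 7 GABA receptor genes.

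Kcnc1, a voltage-gated channel of fast-firing neurons, measured 5.57%, 4.61% and 6.67% in control mice and 64.6%, 81.5% and 88.4% in induced mice (adjusted p = 0.00175). Kcnk5, a background channel of epithelia, was listed at 0 in all 3 control mice and measured 0.4%, 0.23% and 0.1% in induced mice. Kcnk1 and Kcnq1, whose channels also work in epithelia, were the other 2 held-low potassium channels, with induced means of 0.41% and 1.38%. Kcnk3, of the same K2P family as Kcnk1 and Kcnk5, rose from 1.43% ± 0.966 to 76.0% ± 6.32.

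Calcium, sodium and other cation channels were higher at 36 of 54 members (66.7%, against 27.6% of all genes). Cacna1b, the neuronal N-type calcium channel, measured 0%, 0% and 1.04% in control mice and 86.0%, 70.2% and 83.2% in induced mice, and the T-type channel Cacna1h rose from 1.05% ± 0.725 to 74.2% ± 10.7. P2rx4, a widely expressed ATP-gated channel, was listed at 0 in all 6 mice, while its relative P2rx5 rose from 0.187% ± 0.201 to 78.5% ± 9.42. Among the receptors, Gabrb1, a subunit of the GABA receptor, rose from 5.44% ± 2.12 to 81.0% ± 8.21. Chrm3, the muscarinic receptor of gut epithelium and smooth muscle, was listed at 0 in the control mice and measured 0%, 4.02% and 6.16% in the induced mice.

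Synaptic and neuropeptide genes were higher at 47 of 61 members (77.0%, against 27.6% of all genes) with a median difference of 47.8 points. The neuropeptide galanin (Gal) measured 3.62%, 1.12% and 0.37% in control mice and 76.8%, 75.4% and 80.9% in induced mice (adjusted p = 9e-05). Camk2b, a calmodulin kinase subunit abundant in neurons, rose from 0.96% ± 0.0625 to 76.2% ± 12.4, and its broadly expressed relative Camk2d was at 0.0167% and 0.03%. Syngr2 and Vamp2, vesicle proteins that also serve outside neurons, were listed at 0 in every induced mouse.

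**Figure D3:**
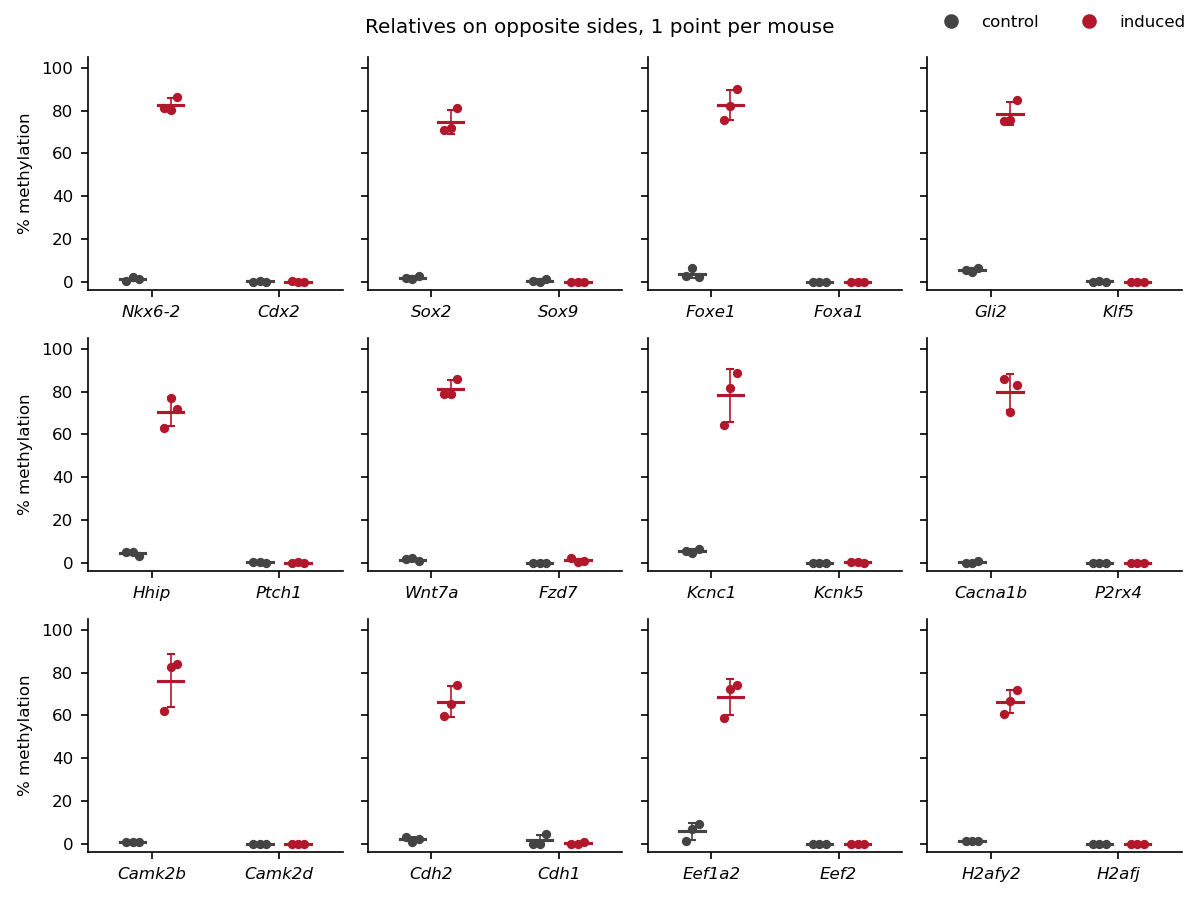
Promoter methylation (y axis, percent) of 12 pairs of genes from the same lists, control mice in grey and induced mice in red, 1 point per mouse with the mean as a bar and the SD as an error line. In each pair, chosen after the values were seen, the left gene has a full gain and the right gene is held low: Sox2 reached between 70.7% and 81.3% in the induced mice, and Sox9 at most 0.13%.

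Signalling pathways were divided by the role of the gene. Of 16 measured Wnt ligands 14 were higher, 9 with a full and 5 with a partial gain, and their median induced level was 59.1%. Of 9 Frizzled receptors, which bind them, 3 were higher, none with a full gain, and 3 were held low. Of all genes 27.6% were higher and 62% were held low. The median induced level was 15.7% for the receptors, against 0.793% over all genes. Wnt7a measured 1.72%, 2.1% and 0.73% in control mice and 78.9%, 79.0% and 85.9% in induced mice. Fzd7, a receptor of intestinal stem cells, measured 0.09%, 0.11% and 0.09% in control mice and 2.06%, 0.58% and 0.84% in induced mice, and Fzd4 and Fzd1 ended at 0.853% and 1.61%. The division into ligands and receptors was made after the values were seen.

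Of 23 Wnt antagonists 12 were higher (52.2%, against 27.6% of all genes) and 10 were held low (43.5%, against 62%). Shisa3, which keeps Frizzled receptors from the cell surface, rose from 0.373% ± 0.232 to 74.0% ± 6.396 and Nkd2, an inhibitor inside the cell, from 0.393% ± 0.169 to 72.1% ± 10.7. Axin1, a scaffold of the β-catenin destruction complex, and Znrf3, a ligase that removes Frizzled, stayed at 0.113% and 0.117%. Wif1, a secreted inhibitor, was held low here at 0.0467% in induced mice, but in the long-fragment libraries it went from 0.147% to 27.0%.

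Growth factors of the TGF-beta, BMP and FGF families were higher at 45 of 70 genes together with their receptors and mediators (64.3%, against 27.6% of all genes). Fibroblast growth factors themselves were higher at 15 of 18 genes, 11 with a full gain, and no FGF gene was held low. By contrast 6 of 8 Smad genes, the intracellular mediators, were held low, against 62% of all genes, and none had a full gain. Fgf20 rose from 2.62% ± 2.67 to 75.4% ± 4.67 and Bmp6 from 2.51% ± 1.75 to 76.1% ± 12.3. Of 8 bone morphogenetic protein genes, grouped after their values were seen, 5 were higher, Bmp6 with a full gain and 4 with a partial gain, and 2 were held low, with a median of 16.4% in induced mice. Smad4, the common mediator, was at 0.08% ± 0.0458 in control and 0.03% ± 0.0265 in induced mice, and the receptor Bmpr2 at 0.407% and 0.09%.

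Of 23 genes of the Hedgehog and Notch pathways 12 were higher (52.2%, against 27.6% of all genes) and 9 were held low (39.1%, against 62%). The Hedgehog-binding inhibitor Hhip measured 5.18%, 4.87% and 3.3% in control mice and 63.1%, 76.8% and 71.9% in induced mice (adjusted p = 0.000536). The groups did not overlap, and the Notch ligand Dll3 gained fully too and ended at 78.9%. The Hedgehog receptor Ptch1, the pathway inhibitor Sufu and the Notch ligand Jag1 stayed at 0.15%, 0.0567% and 0.19%.

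Axon guidance genes had many small rises. Of 56 members 37 were higher (66.1%, against 27.6% of all genes), and 29 to 39 without 1 library. The 37 comprised 16 full gains, 8 partial gains and 13 rises under 10 points (23.2%, against 4.54% of all genes). The median difference of the list was 8.13 points. Such small rises are an unstable class, with 229 to 732 over all genes without 1 library. Efnb3, an ephrin, rose from 19.4% ± 3.54 to 91.4% ± 6.88 and Slit1, a repellent of axons, from 5.55% ± 6.42 to 76.3% ± 5.38. Ephb3, a receptor that sorts cells along the crypt, measured 0.05%, 0.15% and 0.16% in control mice and 4.24%, 3.97% and 4.55% in induced mice, and Ephb2 rose from 0.38% ± 0.314 to 2.22% ± 0.287 (chosen after their values were seen). Sema4g, a semaphorin, was held low at 0.05%, but in the long-fragment libraries it went from 5.85% to 15.1%.

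Matrix and adhesion genes gained by subfamily. Of 104 matrix, integrin and metalloprotease genes 74 were higher (71.2%, against 27.6% of all genes). Among them were 17 of 19 collagens, 13 with a full gain. Integrins, the receptors by which cells hold on to matrix, lay nearer to all genes. Of 14 integrins 5 were higher and 8 were held low, against 27.6% and 62% of all genes. Col9a3, a cartilage collagen, rose from 5.11% ± 2.24 to 84.4% ± 14.4. Itgb1, the main integrin subunit of epithelium, was at 0.387% and 0.03%. Cadherins and protocadherins were higher at 21 of 36 members (58.3%, against 27.6% of all genes). Cdh2, the neural cadherin, measured 3.36%, 1.05% and 2.28% in control mice and 59.7%, 65.5% and 74.2% in induced mice. Cdh1, the epithelial cadherin, measured 0.09%, 0% and 4.69% in control mice and 0%, 0% and 0.65% in induced mice. Dsg2, a desmosomal cadherin of epithelium, was listed at 0 in all 6.

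Membrane transporters and orphan receptors spanned the whole range. G protein receptors of the Gpr series were higher at 27 of 43 members (62.8%, against 27.6% of all genes) with a median difference of 44.1 points. Solute carriers were higher at 72 of 206 members (34.95%, against 27.6% of all genes), and 53.4% were held low, against 62%. Their median difference was 1.51 points, against 0.50 over all genes. Slc5a7, the choline transporter of cholinergic neurons, rose from 1.87% ± 0.766 to 73.7% ± 5.72. Slc26a2, a sulfate transporter of colon epithelium, was listed at 0 in all 6 mice. By subfamily, grouped after the values were seen, 22 of 30 mitochondrial carriers of the Slc25 family were held low, against 62% of all genes. Of 11 transporters of neurotransmitters and amino acids of the Slc6 family 2 were held low.

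Genes that mark other cell types of the colon wall gained methylation at most measured members. Stromal, muscle and enteric nerve genes were higher at 18 of 21 members (85.7%) and endothelial genes at 10 of 15 (66.7%), against 27.6% of all genes. The full gains numbered 13 and 9. None in either list was held low, against 62% of all genes. In the endothelial list Rasip1 fell from 10.8% ± 3.18 to 0.940% ± 0.830 (adjusted p = 0.0162), a call lost without control mouse 1 or induced mouse 2 or 3, and the smooth muscle gene Smtn measured 16.01% ± 2.67 and 4.54% ± 6.66 without passing the test (adjusted p = 0.116). Myh11, the smooth muscle myosin, measured 11.3%, 9.71% and 8.27% in control mice and 79.8%, 70.2% and 78.2% in induced mice, and Twist1, a mesenchymal factor, rose from 1.14% ± 1.14 to 68.0% ± 7.53. Of 9 measured blood and immune genes 7 were higher (77.8%, against 27.6% of all genes). The T-cell factor Tbx21 ended at 85.9% ± 3.595, the lymphoid factors Pax5, Ikzf1 and Ikzf3 at between 58.9% and 66.8%, and the chemokine receptor Cxcr4 at 43.4% ± 5.13 from 0 in each control mouse. Lck, a T-cell kinase, and Runx1 stayed at 0.113% and 1.53%.

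Epithelial genes were called higher at a share near that of all genes. Of 38 factors and products of the intestinal epithelium 27 were held low (71.1%, against 62% of all genes), 9 were higher (23.7%, against 27.6%), and the median difference was 0.18 points, against 0.50 over all genes. The members with a full gain were Neurog3, the factor of endocrine precursors, at 56.3% ± 4.97, the endocrine granule protein Chga at 52.8% ± 14.1 and the claudin Cldn4 at 64.2% ± 13.6, whose call was lost without control mouse 1 or 3. The partial gains were Gata4, a factor of the proximal gut, at 36.3% ± 6.74 and Msi1, an RNA-binding protein of progenitors, at 32.3% ± 1.11. Among 45 claudins, keratins and junction genes 26 were held low (57.8%), including Ocln and Cldn3 of tight junctions, and Gjb6 and Gja3, connexins of other tissues, rose to 70.5% and 68.0%; 11 members were higher (24.4%), and 7 without control mouse 1 or 3, so both shares were near those of all genes.

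Promoters of functions that every cell needs mostly stayed low. The 11 lists of such genes, from ribosome to membrane traffic, held 1101 genes, of which 894 (81.2%, against 62% of all genes) were held low, 27 (2.45%) had a full gain, 34 (3.09%) a partial gain and 35 (3.18%) a small rise. The share held low lay between 74.6% and 90.0% in every one of these lists, and their median differences were 0.24 points or less. The share higher lay between 0% and 12.2%, against 27.6% of all genes.

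The respiratory chain had no member that passed the test upwards, and 72 of 80 were held low. At an unadjusted p under 0.05 in limma 3 members were higher, and leaving out 1 library at a time gave between 0 and 6 higher members, the 6 without induced mouse 1. Among genes named for ATP synthase, NADH dehydrogenase, cytochrome oxidase and the cytochrome bc1 complex, 57 of 64 were held low, and Atp5d and Cox7a2l were listed at 0 in all 6 mice. Ndufs5, a subunit of complex I, was the member that fell, from 0.393% ± 0.0929 to 0 in each induced mouse (adjusted p = 0.0124).

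Ribosomal proteins were held low at 49 of 62 members and higher at 7 (between 4 and 7 without 1 library). Rpl38 stood out with 2.24%, 0.72% and 3.82% in control mice and 29.2%, 22.6% and 25.4% in induced mice (adjusted p = 0.00134), although in the long-fragment libraries it ended at 3.17%. Rps15 rose from 0.58% ± 0.102 to 10.97% ± 1.73, and the P-stalk gene Rplp0 was listed at 0 in every induced mouse. Mitochondrial ribosomal proteins were higher at 3 of 51 members (2 to 7 without 1 library), none with a full gain, and Mrpl9 and Mrpl52 were listed at 0 in all 6.

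In translation, 72 of 90 genes were held low and 9 were higher (3 to 8 without 1 library). Eef1a2, the elongation factor form of neurons and muscle, measured 1.23%, 7.03% and 9.22% in control mice and 58.7%, 72.4% and 74.3% in induced mice (adjusted p = 0.00123). Eif5a2, the restricted form of an initiation factor, reached 48.3%, 48.6% and 48.6% in the induced mice from 1.70% ± 1.40. Eef2, the elongation factor of all cells, was listed at 0 in all 6, but in the long-fragment libraries it went from 1.27% to 10.9%.

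Some motor protein and chaperone genes gained methylation. Kif1a, a kinesin that carries synaptic vesicle precursors, was listed at 0 in each control mouse and measured 77.4%, 75.5% and 66.5% in induced mice, and Kif5c, a neuronal kinesin, rose from 0.933% ± 1.44 to 67.3% ± 5.67. In the list that holds both, cell cycle and DNA replication, 120 of 146 members were held low and 16 were higher (12 to 21 without 1 library), with Anapc4, Anapc10 and Cdc123 at 0 in all mice. Dnajc6, a co-chaperone of clathrin uncoating in neurons, rose from 1.95% ± 0.968 to 77.6% ± 2.91 and Hspa12b, an endothelial Hsp70 relative, from 4.12% ± 2.82 to 80.8% ± 12.8, among 8 of 88 proteasome, chaperonin and chaperone genes that were higher (5 to 12 without 1 library).

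Nuclear and membrane functions were held low at 74.6% to 88.6% of the members of each list, against 62% of all genes. Between 2.27% and 12.2% were higher, against 27.6% of all genes. Splicing and mRNA processing genes were held low at 111 of 134 members and higher at 11 (5 to 11 without 1 library), and the exception Ddx25, a helicase of the testis, rose from 0.893% ± 0.777 to 54.1% ± 5.99. DNA repair genes were held low at 39 of 44, with 1 member called higher, and between 0 and 4 without 1 library. Ubiquitin genes were held low at 116 of 142 and higher at 14 (12 to 18 without 1 library), and included the full gains Cul9, Fbxl2 and Fbxo41, with Fbxl2 at 0.613% ± 0.56 and 68.8% ± 2.75. RNA polymerase and Mediator genes were held low at 62 of 77 members and higher at 4 (3 to 6 without 1 library). Polr2i, a general subunit of RNA polymerase II, rose from 20.6% ± 4.79 to 59.4% ± 3.27 and the Mediator gene Med29 from 1.49% ± 0.741 to 20.3% ± 7.19, a call lost without any 1 of control mice 1 to 3 or induced mice 1 and 2. Small GTPase and vesicle traffic genes were held low at 141 of 189 members and higher at 23 (17 to 29 without 1 library), with Arl5c, a small GTPase, at 4.56% ± 2.60 and 85.1% ± 3.62.

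Polycomb and histone methylation genes and DNA methylation genes were held low at shares near the 62% of all genes, histone genes at 77.8%. The shares called higher were 16.7%, 11.8% and 11.1% in that order, against 27.6% of all genes. Of 42 Polycomb and histone methylation genes 28 were held low (66.7%) and 7 were higher (4 to 12 without 1 library), with Jarid2 and Mtf2 of Polycomb complex 2 at 0.0167% and 0.02% in induced mice. Nsd1, a histone methyltransferase, was the member with a full gain and rose from 21.9% ± 2.01 to 72.1% ± 6.97. The demethylase gene listed as Fbxl11 measured 3.85%, 2% and 3.54% in control mice and 28.1%, 26.5% and 28.6% in induced mice, and stood at 0.11% and 0.0733% in the long-fragment libraries. Of 18 histone genes 14 were held low, and H2afy2, which encodes a macroH2A, and the linker histone gene H1fx rose to 66.4% and 57.8%. Of 17 genes of the DNA methylation machinery 11 were held low (64.7%) and 2 were higher (2 to 4 without 1 library), Dnmt3b and Gadd45a, and the methyl-CpG readers Mbd2 and Mbd3 were at 0.00333% and 0.0333%; Gadd45a rose to 13.5% ± 1.04 here and stood at 0.173% in the long-fragment libraries.

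Genes linked to tumours were counted in separate lists. Of 53 genes that human colorectal cancers methylate 40 were higher (75.5%, against 27.6% of all genes), 28 with a full gain. In this list 5 were held low (9.43%, against 62%), among them Rassf1 and Apc at 0.287% and 0.407%. Of 49 tumour suppressors 12 were higher (24.5%) and 34 were held low (69.4%), shares near the 27.6% and 62% of all genes, with a median difference of 0.31 points. Cadm1, an adhesion molecule, rose from 0.963% ± 0.500 to 73.2% ± 9.97. Lats1, a kinase of the Hippo pathway, and Klf6 ended at 0.0167% each.

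Most germline genes measured were methylated before induction. Of 21 germline and pluripotency genes 7 were higher (33.3%, against 27.6% of all genes), 13 were at 50% or more in control mice and did not pass the test, and none was held low; the list median went from 81.9% to 93.9%. Spo11, which cuts DNA in meiosis, was at 93.7% ± 3.75 in control and 97.6% ± 0.625 in induced mice. The exceptions that began lower were Tdrd6, a protein of male germ cells, which rose from 17.96% ± 2.64 to 78.0% ± 5.26, and Syce2, of the synaptonemal complex, which measured 38.3%, 27.6% and 26.3% in induced mice from 0 in each control mouse. Of 25 imprinted genes, which are expressed from 1 parental copy, 13 were higher (52%): Dio3 measured 0.23%, 0.59% and 0.11% in control mice and 67.0%, 76.5% and 87.4% in induced mice, while Ube3a and Commd1 were listed at 0 in every induced mouse.

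Partial gains were looked at mouse by mouse, within the limit that the test can leave out promoters whose induced mice disagree widely. Among the 737 promoters with a partial gain that began under 10%, all 3 induced mice lay at 10% or more and under 50% in 496 (67.3%). Bai2, Tmem178 and Amph were picked as partial gains with a small SD between induced mice. Bai2, a receptor of the brain, measured 0.23%, 0.21% and 0.19% in control mice and 39.6%, 40.3% and 39.5% in induced mice (adjusted p = 4e-06). Tmem178, a membrane protein gene, measured 0.42%, 0.82% and 0.14% in control mice and 35.2%, 35.02% and 36.5% in induced mice, and Amph, a synaptic protein of endocytosis, 27.0%, 25.5% and 26.3% in induced mice against 1.31% ± 0.210.

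Some intermediate values were means of unlike promoters. Of the 963 genes with a partial gain 111 had 2 or more promoters in the files, and in 16 of these the promoters differed by 40 points or more in the induced mice. Over all genes tested 958 had 2 or more promoters, and 18 of them differed that far. Some of the 16 already did so in control mice, among them Limk2, with control means of 57.2% and 7.72%, and Rai1. Arhgef7, a guanine nucleotide exchange factor, had 1 promoter that measured 74.7%, 63.6% and 79.3% in the induced mice and another at 0%, 0.18% and 0%. Rai1, a transcriptional regulator, had promoters at 92.6% and 0.503% in induced mice, from 42.8% and 0.0167% in control mice. Both genes were chosen after their values were seen.

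Other intermediate means came from mice that disagreed, and these did not pass the test. Cldn10, a claudin, measured 0%, 86.9% and 77.4% in the induced mice against 6.77% ± 7.17 in control mice (adjusted p = 0.321). Rarb, a retinoic acid receptor, measured 38.2%, 98.2% and 94.4% against 11.5% ± 7.93 (adjusted p = 0.0716). Atp8b3, a lipid flippase of sperm, was high in induced mouse 1 at 89.7% and lower in mice 2 and 3 at 27.0% and 63.3%, from 0.277% ± 0.479. In all, 10 genes had an induced mean at least 50 points above control and 403 one 10 to 50 points above without passing the threshold, and they count in neither class of gain.

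**Figure D4:**
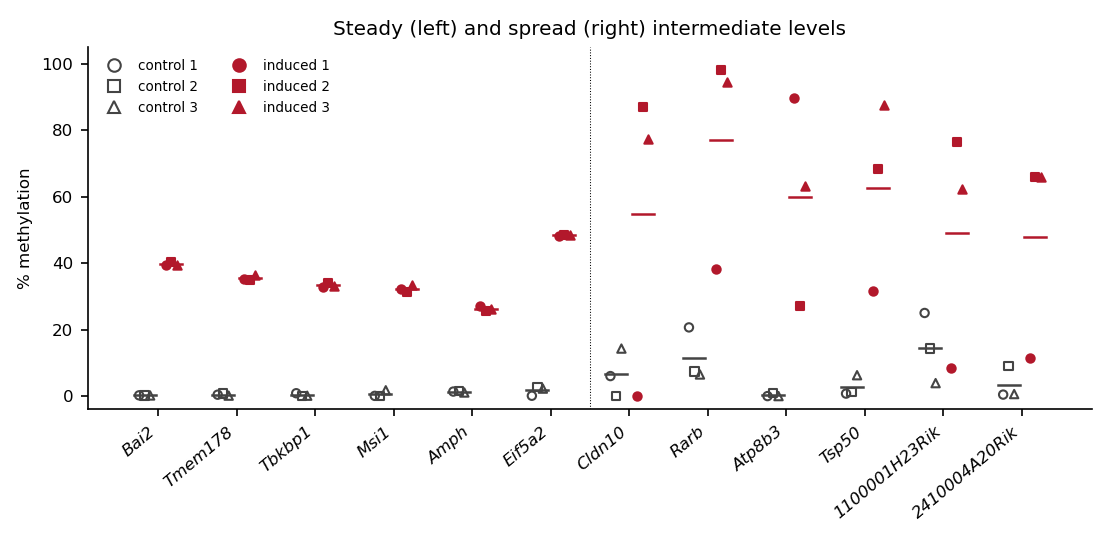
Promoter methylation (y axis, percent) of 6 genes with a partial gain and little spread between induced mice, and of 6 genes with a large spread that were not called, 1 symbol per mouse with the mean as a bar, control mice open and induced mice filled. Bai2 lies between 39.5% and 40.3% in the induced mice, and Cldn10 between 0% and 86.9%.

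The induced mice differed in how far the gain had gone. At the promoters with a full gain the mean was 62.2% in induced mouse 1, 66.0% in mouse 2 and 74.8% in mouse 3, against 4.27%, 4.33% and 4.61% in the control mice. Induced mouse 3 was highest at 1068 of these 1347 promoters and mouse 1 lowest at 854. Among the partial gains the order was looser, with mouse 3 highest at 427 of 963, mouse 2 at 263 and mouse 1 at 273. Over the 45 gene lists, which overlap in part, mouse 3 had the highest mean in 33 and mouse 1 the lowest in 33. What moved with this difference was not tested, since each induced mouse gave 1 short-fragment library and the labels name no batch.

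**Figure D5:**
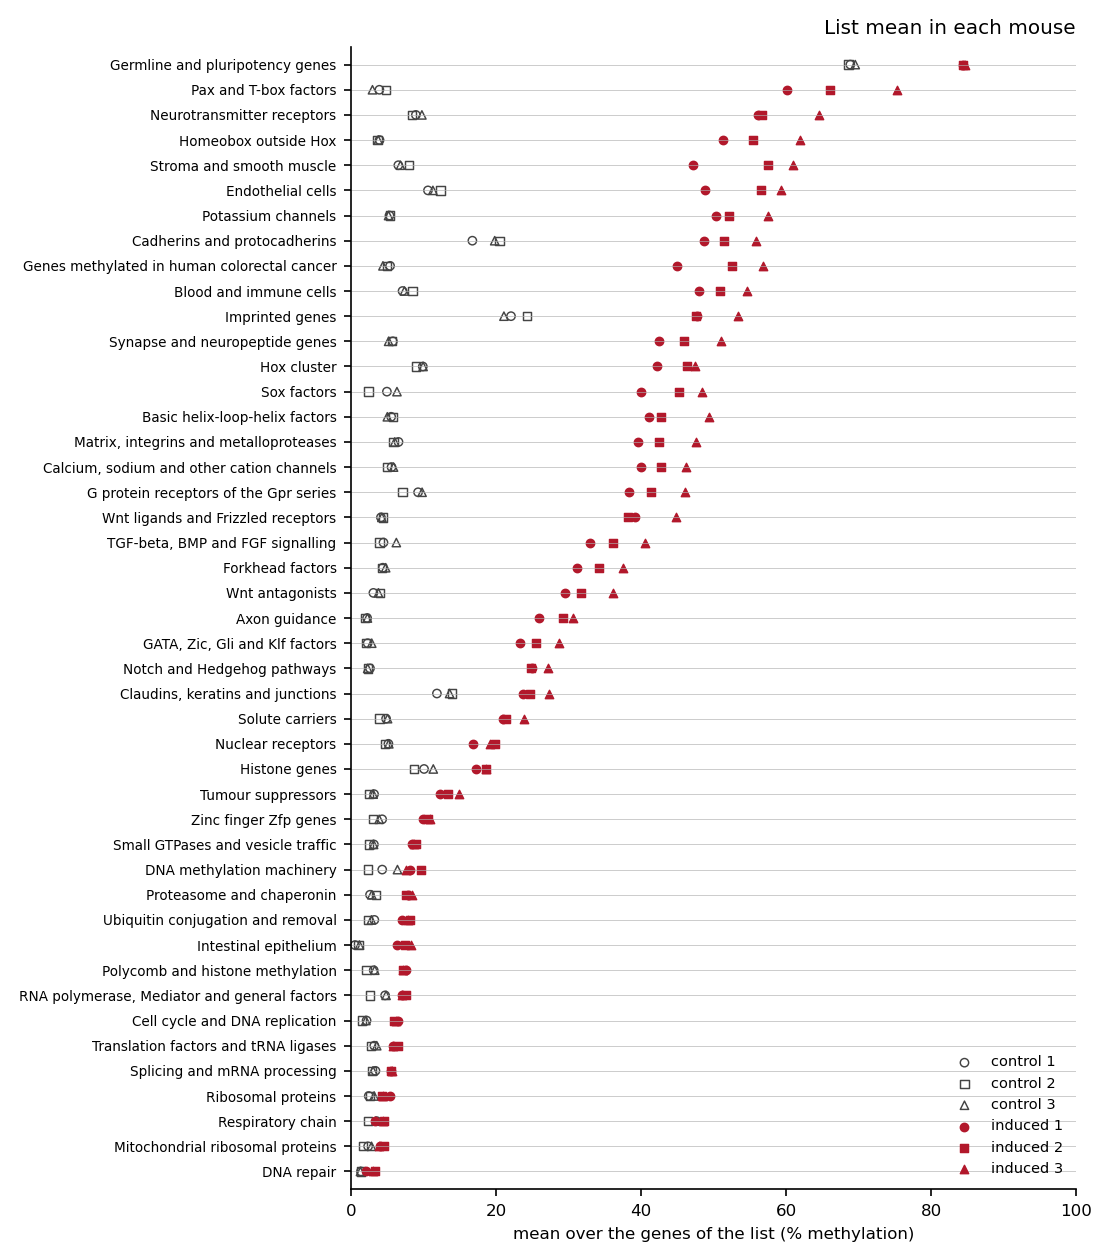
Mean promoter methylation over the genes of each of 45 lists (x axis, percent) in each mouse, control mice as open and induced mice as filled symbols. In 44 lists, all but the respiratory chain, the 3 induced mice lie above the 3 control mice, and in the Pax and T-box list induced mice 1, 2 and 3 lie at 60.2%, 66.0% and 75.3%.

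The rises in short fragments can be set beside those of the long-fragment libraries of the same mice for 5309 genes. The change differed between the fractions at 250 of them (4.71%, limma interaction, adjusted p under 0.05), with the larger rise in short fragments at 110 and in long fragments at 140. Of the genes named above, Grin2c, a glutamate receptor subunit, rose from 0.54% ± 0.609 to 77.6% ± 5.79 in short fragments and from 25.6% to 67.3% in long fragments, and the metalloprotease Mmp23 from 2.41% ± 0.971 to 77.1% ± 6.27 in short and from 13.9% to 51.9% in long fragments. The fractions hold different fragments of a promoter, and the held-low genes Wif1, Sema4g and Eef2 had larger changes in long fragments. Some other held-low genes carried methylation in the long fragments of both groups, without a called difference in change. Control and induced means there were 16.6% and 29.1% for Atp5d, 9.25% and 15.4% for Vamp2, 16.4% and 19.2% for Sox4, and 11.4% and 5.02% for Id3.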

How the data were processed

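The authors' deposited tables, 1 per library, hold methylation as a fraction from 0 to 1, averaged over the CpGs of each promoter and gene per the file headers. The sources used here do not give the aligner, the build, the window that counts as a promoter, or any filter on coverage. Values were multiplied to percent. No coverage is given, so the depth and the counting error of each value are unknown.

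Induced and control mice were compared with limma 3.58.1 in R 4.3.3 (lmFit and eBayes on percent) over the 10027 genes in all 6 short-fragment libraries, at an adjusted p of 0.05. Classes used differences of 50 and 10 points and 95% confidence intervals from that fit. On data simulated for this comparison over its 10027 genes, calls were made for 34, 42, 49 and 47 of 50 genes each that were raised by 5, 20, 40 and 60 points, with 18 false calls. The raised genes were drawn from those under 10% in control mice and kept their own spread. The median SD over induced mice was 0.162 points at held-low genes, 5.23 at partial and 8.49 at full gains. The simulated shares can therefore overstate the recovery of real gains. The interaction with fragment length used 5309 genes with the mouse as a random block (consensus correlation 0.0674). Of the genes 10009 were found by gene ID in a RefSeq table of GRCm38.p6. Identical values of 1999 genes with another gene were kept. They include the 327 genes listed at 0 in all 6 libraries, and whether the others share a promoter was not checked. Python 3.11.15, numpy 2.4.6, pandas 2.3.3 and matplotlib 3.10.9 were used for summaries and figures.

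The comparison, the 45 gene lists and the rule for named genes were chosen with earlier results of these data known. Lists hold genes by symbol from general knowledge and are described by counts and medians without a test. Named were, per list, the 3 called members with the largest rise, the 3 uncalled members with the lowest induced mean and any member that fell, and over all genes 10 partial gains of 20 to 40 points with the smallest and 10 genes with the largest SD between induced mice; some genes that the rule names are left out of the text. Alternatives left out each library, X and Y genes or repeated values, allowed missing values, changed scale, variance model and thresholds, or added a replicate block.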

Additional observations from a re-analysis of the deposited data

Results flagged for a closer look

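At 13 named genes the change after induction differed between the fragment lengths (limma interaction with the mouse as a block, adjusted p under 0.05 over 5309 genes). Each value is the change in long fragments minus that in short fragments, in points, and groups of 3 mice were not searched for outlying samples. The rise was larger in long fragments for Wif1, by 26.95 points (0.147% to 27.0% in long fragments), Eef2 by 9.65 (1.27% to 10.9%) and Sema4g by 9.22 (5.85% to 15.1%). In short fragments Zfp768 fell by 2.873 points and Eif1a fell by 2.003 points, and their changes differed by 7.98 and 2.20 points; the short-fragment call for Zfp768 was lost without control mouse 1 or induced mouse 1 or 2 (adjusted p = 0.0607, 0.0521 and 0.0542, limma).

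The rise was larger in short fragments for the other 8 genes. The differences were −36.7 points for Mmp23, −35.3 for Grin2c, −24.6 for Fbxl11, −20.3 for Rpl38, −15.55 for Ltbp4, −13.3 for Gadd45a, −5.57 for Mrps7 and −2.83 for Mrpl37. In long fragments Mrpl37 was listed at 0 in both groups, and Mrps7 stood at 0.563% and 0.58%, while in short fragments they rose from 0.0467% to 2.88% and from 1.11% to 6.70%. Ltbp4, which binds latent TGF-beta, rose from 3.00% to 38.6% in short and from 0.973% to 21.0% in long fragments.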

How the results depend on the processing

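Leaving out 1 library at a time gave between 2212 and 3021 genes higher and between 4 and 18 lower, with 1175 to 1408 full gains, 701 to 978 partial gains, 229 to 732 small rises, 5971 to 6278 held-low promoters and a mean difference of 12.4 to 13.5 points. The small rises were the least stable class: without control mice 1, 2 and 3 they numbered 240, 249 and 229, and without induced mouse 1 they numbered 732. The genes called lower numbered 17 and 18 without control mice 2 and 3 and 4 without induced mouse 2. An arcsine scale gave 21 lower genes and 774 small rises, and there the class held low was not computed. A threshold of 60 points for a full gain gave 844 full and 1466 partial gains. A lower threshold of 5 points gave 290 small rises, and one of 20 points gave 693. Keeping 1 gene of each identical set raised the mean difference to 14.6 points. The mean level was not refitted for the alternatives that change only the per-gene test.

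Replicate numbers did not pair the mice: deviations of same-numbered control and induced libraries had correlations of 0.0736, 0.00398 and −0.0498. With a replicate block 2110 genes were higher, 4 were lower and 200 had a small rise. Of the 285 named genes 18 lost their call in at least 1 alternative and 19 gained one in at least 1. No called change reversed in any alternative, and sign changes of uncalled genes were not counted. Counts of higher members moved by over 1.5 times downwards in 12 of 45 lists and upwards in 7, in at least 1 alternative each. The X-linked genes had 55 higher members with a mean difference of 28.5 points, and 56 with 18.7 points without control mouse 2. Depth is unknown, so few reads may stand behind a listed 0.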
